A study of Mus musculus with 9 samples.

Results

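The p53 network was followed here as 35 listed genes: the p53 gene Trp53, the inhibitors Mdm2, Mdm4 and Ppm1d, and 31 genes known as p53 targets or partners. Of the 35 symbols, 33 have a row among the 19359 genes of the expression table, and Phlda3 and Ak1 were not analysed here. The samples were mouse embryos taken 34 h after fertilization, pooled by 3 into each of 9 libraries, with 3 libraries per group named A, B and C. SPN embryos received a sham pronuclear transfer and served as control. EPN embryos received pronuclear transfer early and LPN embryos received it later, so embryos of all 3 groups had been through micromanipulation. Per the labels, oocytes came from hormone-primed B6D2F1 females aged 8 to 12 weeks, the protocol also mentions selective enucleation of oocytes to prepare abnormal cytoplasts, and it does not say which group, if any, received such cytoplasts. Untouched embryos were not analysed here. The labels do not say whether pools shared a day, mating or operator, so the p-values below measure only the spread between these libraries, which may be technical.

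p53 is a transcription factor that is kept low by MDM2, a ubiquitin ligase, and by its relative MDM4, and that accumulates when DNA is damaged or cells are stressed. Once stable it raises transcription of genes that stop the cell cycle, repair DNA, limit oxidative damage or start cell death, and it raises Mdm2 itself, which closes a feedback loop. Much of the control is on the protein, so the level of Trp53 mRNA says little about p53 activity, whereas Cdkn1a, Mdm2, Ccng1 and similar targets are the usual mRNA readouts. In mouse development embryonic transcription starts around the 1-cell to 2-cell stage, while mRNA stored by the oocyte is cleared. Poly(A) RNA from whole embryos holds both sources, and fewer cells and less RNA per cell cannot be told apart.

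The DNA element that p53 binds is a pair of decamers, and matches to it near the start sites of the listed genes are shown here. RefSeq promoter windows (GRCm38.p6), from 250 bases before to 50 bases after a start site, were found for 28 of the 35 genes, 40 windows in all. Trp53inp1, Perp, Tnfrsf10b, Ddb2, Xpc, Rrm2b and Zmat3 had none. A pair of decamers matching the p53 decamer consensus at every base, with 0 to 13 bases between them, was present in 1 member window, that of an upstream start site of Cdkn1a, and in 24 of all 32851 windows (0.0731%). With at most 1 mismatch over both decamers it was present in 4 member windows and in 1.09% of all windows. The consensus reads the same on both strands. The 4 matches follow, each with up to 40 flanking bases, 5′ to 3′ along the gene, with the decamers in capitals.
Cdkn1a (chr17:29090866-29090977, plus strand): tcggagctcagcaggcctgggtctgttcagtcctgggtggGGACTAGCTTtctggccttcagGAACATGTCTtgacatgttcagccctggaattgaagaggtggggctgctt
Ccng1 (chr11:40755422-40755521, minus strand): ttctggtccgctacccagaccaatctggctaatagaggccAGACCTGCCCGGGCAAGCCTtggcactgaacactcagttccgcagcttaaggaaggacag
Polk (chr13:96519358-96519437, minus strand): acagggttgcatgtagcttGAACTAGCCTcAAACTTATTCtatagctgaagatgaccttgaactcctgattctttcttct
Gtse1 (chr15:85859905-85859964, plus strand): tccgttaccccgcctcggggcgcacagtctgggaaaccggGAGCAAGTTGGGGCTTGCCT
In Cdkn1a the match lay 73 to 42 bases before that start site, and the other RefSeq start lay 2790 bases downstream. The decamer directly after the capitals, tgacatgttc, differed from the consensus at 1 base. It thus forms a further pair with the second decamer in capitals, with no bases between them and 1 mismatch. The capitals mark only the pair with the fewest mismatches. The Ccng1 match began 195 bases and the Polk match 231 bases before a start, and the Gtse1 match spanned the start itself. A match is a description of these letters, and the genes were listed as p53 targets beforehand.

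Values are CPM, read counts scaled to a common library total. Testing was limited to the 14876 genes that reached 1 CPM in 3 or more libraries, among them 31 members. Differences and their folds are estimates on the scale of log2(CPM + 1), which draws the fold of low genes towards 1. A fold can therefore differ from the ratio of the mean CPM values printed beside it. A call is a limma p-value under 0.05 after Benjamini-Hochberg adjustment over all tested genes, and each ± is the SD of 3 libraries. Perp and Fas, which encode a desmosomal death effector and a death receptor, were below that filter. Perp had 0.501, 0.62 and 0 CPM in SPN A, B and C, 1.59, 1.87 and 0 CPM in EPN, and 0.643, 0 and 0.754 CPM in LPN. Fas had reads in 1 library of each group, with 1.05 CPM in SPN C, 1.01 CPM in EPN A and 0.707 CPM in LPN A. A count of 0 allowed 3 reads, or 0.193 to 0.394 CPM depending on the library, for counting error only.

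Across the series, library totals ran from 7611781 reads (LPN B) to 15559218 reads (LPN A). All 6 early embryo markers and all 6 oocyte-derived markers examined were detected in each group. The summed early embryo markers were 1326 to 2860 CPM in SPN, 3475 to 4915 CPM in EPN and 4162 to 6599 CPM in LPN, and the summed oocyte markers 1921 to 2674, 1455 to 1632 and 855 to 1188 CPM. Bcl2l10 made up most of the oocyte sum in SPN (1225 to 1972 CPM, and 395 to 676 CPM in LPN), while Zp3 of the same list was at 69.4 to 105 CPM in SPN and 147 to 230.1 CPM in LPN. Of 9 cumulus and granulosa markers with a row, 6 reached 1 CPM in some SPN library, 5 in EPN and 6 in LPN, with sums of 31.2 to 46.2, 25.1 to 54.9 and 27.1 to 39.5 CPM, and Foxl2 had no read in any library. Sperm markers summed to at most 12.3 CPM. Of the blood markers, 2 alpha-globin genes had a row, at 36.0 to 100.4 CPM in SPN, 33.9 to 79.8 CPM in EPN and 9.32 to 26.1 CPM in LPN. The part of these shifts in the results below was not tested.

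No member of the p53 network was called in any comparison. In EPN against SPN limma called 0 of 31 members, beside 0.108% of all tested genes (16 of 14876). There 3 members had an unadjusted p under 0.05, beside 11% of all tested genes. On the recovered reads edgeR called 0 members, beside 0 of all genes, and DESeq2 called 0, beside 0.787%. In LPN against SPN limma called 0 of 31, beside 8.8% of all tested genes. An unadjusted p under 0.05 was reached by 7 members, beside 26.9% of all genes. There edgeR called 0, beside 3.21% of all genes, and DESeq2 called 2, Ddb2 higher and Ercc5 lower, beside 12.3%. In LPN against EPN limma called 0 of 31, beside 1.53% of all tested genes. An unadjusted p under 0.05 was reached by 2 members, beside 19.3% of all genes. There edgeR called 0, beside 0.114% of all genes. DESeq2 called 2, Cdkn1a and Rrm2b, both lower in LPN, beside 6.22%. The SPN A library decided several calls. Without it limma called 6 of 31 members in LPN against SPN, beside 18.4% of all tested genes. Of these members Ckap2 and Ddb2 were higher, and Ei24, Ercc5, Rrm2b and Zmat3 lower. Also without SPN A, 1 member was called in EPN against SPN (Ercc5, lower), beside 3.03% of all genes. In LPN against EPN 2 were called (Cdkn1a and Rrm2b, lower), beside 5.12%. Cdkn1a was also the 1 member called in LPN against EPN without SPN B or without EPN C, beside 1.44% and 0.0807% of all genes. The EPN and LPN comparisons with SPN share the SPN libraries.

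Direction was mixed among the members. Of the 31 members 18 had a positive difference in EPN against SPN and the median was 0.11 log2, beside 45.5% positive and a median of -0.07 over all tested genes. In LPN against SPN 9 of 31 were positive and the median was -0.39, beside 43% and -0.17 over all genes. That median was -0.16 without LPN B (12 of 31 positive, all genes -0.10), -0.71 without LPN C and -0.16 with edgeR. Between the transfer groups, LPN against EPN, 8 of 31 were positive and the median was -0.39, beside 43.3% and -0.14. With median-of-ratios scaling the member medians were 0.16, -0.24 and -0.27, beside -0.03, -0.03 and -0.04 over all genes. The sign of the EPN median changed with edgeR (-0.02), DESeq2 (-0.01) and a mean of at least 5 CPM (-0.13), and without SPN C (-0.02) or EPN A (-0.03).

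**Figure D1:**
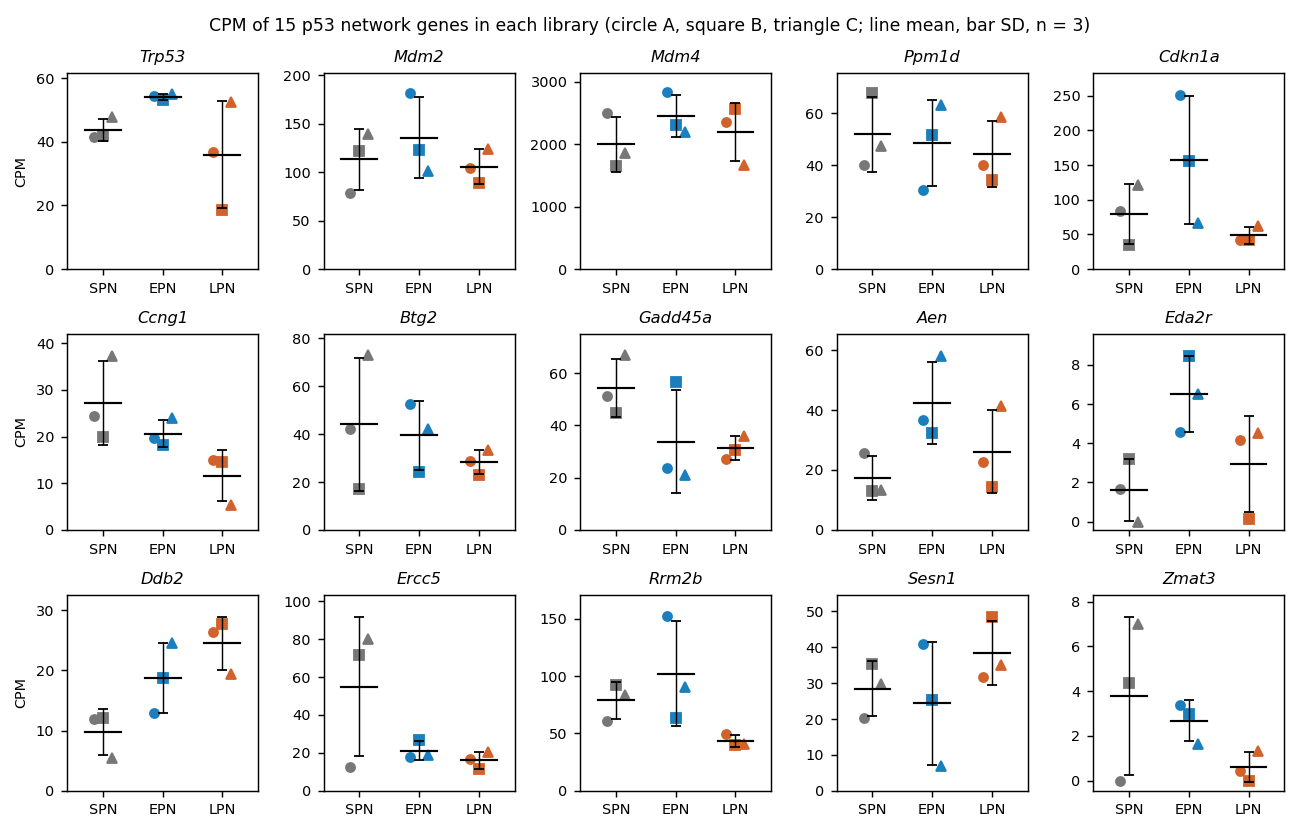
CPM (vertical axes, linear) of 15 p53 network genes in the 9 libraries by group; circles, squares and triangles are libraries A, B and C, horizontal lines are means and bars SD (n = 3). Cdkn1a spans 66 to 251 CPM in EPN, above the 41.8 to 62.7 CPM of LPN, while the SPN libraries, at 34.6 to 121 CPM, overlap both.

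Trp53, the gene at the centre of the network, had 41.6, 41.7 and 47.8 CPM in SPN A, B and C, 54.4, 53.1 and 55.0 CPM in EPN, and 36.7, 18.7 and 52.4 CPM in LPN. The EPN libraries lay above all SPN and all LPN libraries, and LPN overlapped SPN. The estimated difference was 1.24-fold in EPN against SPN (limma adjusted p = 0.802) and 0.764-fold in LPN against SPN (adjusted p = 0.531), with upper 95% bounds of 2.10-fold and 1.30-fold. The LPN difference rested on LPN B, without which its log2 value was 0.01.

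Mdm2, both inhibitor and target of p53, had 78, 122 and 139.5 CPM in SPN, 182, 123 and 102 CPM in EPN, and 105, 88.5 and 124 CPM in LPN. The 3 groups overlapped. The difference was 1.19-fold in EPN and 0.954-fold in LPN against SPN (limma adjusted p = 0.803 and 0.916), and the upper 95% bounds were 1.86-fold and 1.49-fold. The LPN value changed sign with scaling, to 0.11 log2 with median-of-ratios.

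Mdm4, which binds and silences p53 without degrading it, had 2492, 1649 and 1849 CPM in SPN, 2837, 2303 and 2199.6 CPM in EPN, and 2354, 2557 and 1666 CPM in LPN. All groups overlapped, and neither difference from SPN passed the threshold (1.24-fold, limma adjusted p = 0.708, in EPN and 1.10-fold, adjusted p = 0.792, in LPN). Its reads, not corrected for length, made up 49.7% to 65.5% of the reads of all members in a library. Ppm1d, a phosphatase that switches off p53 signalling, had 40.1, 67.9 and 47.5 CPM in SPN, 30.4, 51.6 and 63.0 CPM in EPN, and 39.98, 34.2 and 58.4 CPM in LPN. Its groups overlapped as well, at 0.916-fold and 0.854-fold of SPN (adjusted p = 0.931 and 0.729).

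Among the genes of cell cycle arrest, Cdkn1a, which encodes the cyclin-dependent kinase inhibitor p21, had 83.5, 34.6 and 121 CPM in SPN, 251, 156 and 66.0 CPM in EPN, and 42.0, 41.8 and 62.7 CPM in LPN. EPN A and EPN B were the highest of the 9 libraries, and EPN C lay inside the SPN range. The EPN difference from SPN was 1.93-fold (log2 0.95, SE 0.41, limma adjusted p = 0.39). That of LPN was 0.682-fold (log2 -0.55, adjusted p = 0.403).

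Between the transfer groups, every LPN library was below every EPN library of Cdkn1a, as for 15.3% of all tested genes in that direction. The log2 difference was -1.50 (SE 0.41), or 0.354-fold, and missed the threshold (limma adjusted p = 0.0528). It passed the threshold with DESeq2 (adjusted p = 0.0159), with a mean of at least 5 CPM (0.0391), with the 6 libraries compared alone (0.0394) and with the replicate block (0.0388). It also passed without SPN A (0.0435) or SPN B (0.0401), which enter only the shared spread, and without EPN C (log2 -2.02, 0.0472). The difference missed the threshold with edgeR (0.115), median-of-ratios scaling (0.0827), a pseudocount of 0.1 CPM (0.089) and no filter (0.167). It also missed without SPN C (0.0502), EPN B (0.126), LPN A (0.15), LPN B (0.22) or LPN C (0.056). Over all alternatives the adjusted p ran from 0.0159 to 0.313, the highest being without EPN A (log2 -1.07). Groups separated in this direction for 7 members: Trp53, Cdkn1a, Ccng1, Eda2r, Rrm2b, Zmat3 and Cdkn2aip.

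Ccng1, which encodes cyclin G1 and carries a matching pair of decamers shown above, had 24.4, 20.02 and 37.3 CPM in SPN, 19.8, 18.2 and 23.9 CPM in EPN, and 14.9, 14.6 and 5.28 CPM in LPN. All LPN libraries were below all SPN and EPN libraries. The difference in LPN against SPN was 0.424-fold (log2 -1.24, SE 0.47, limma adjusted p = 0.0871). Groups separated in that direction for 16.2% of all tested genes in LPN against SPN and for 5 members, the others being Gadd45a, Gtse1, Rrm2b and Sulf2.

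Btg2, an antiproliferative cofactor of mRNA deadenylation, had 42.1, 17.1 and 72.9 CPM in SPN, 52.5, 24.0 and 42.2 CPM in EPN, and 28.7, 23.0 and 33.3 CPM in LPN. The SPN libraries spanned the other 6, and the fold was 1.001 in EPN and 0.751 in LPN against SPN. Gadd45a, a growth arrest and DNA damage gene, had 51.1, 44.9 and 66.8 CPM in SPN, 23.9, 56.5 and 21.0 CPM in EPN, and 27.3, 30.5 and 36.1 CPM in LPN. LPN lay below SPN without overlap at 0.589-fold (limma adjusted p = 0.206), and EPN B lay inside the SPN range. Gtse1, a negative regulator of p53 in G2 phase, was at 35.8 ± 7.05 CPM in SPN, 27.0 ± 3.66 in EPN and 20.1 ± 4.07 in LPN (n = 3). Plk2 and Plk3, polo-like kinases of the stress response, had overlapping groups in which LPN ran from 24.9 to 105 CPM and from 5.21 to 39.4 CPM. All 7 arrest genes had a negative estimate in LPN against SPN, where 43% of all tested genes were positive, with 0 called. In EPN against SPN 4 of 7 were positive, beside 45.5% of all genes, with 0 called. The 4 include Btg2, at log2 0.0008, which was negative with edgeR and DESeq2.

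Of the 7 tested genes of cell death, Aen, an apoptosis-enhancing nuclease, had the smallest p of any member in EPN against SPN. It had 25.6, 12.8 and 13.5 CPM in SPN, 36.8, 32.3 and 58.1 CPM in EPN, and 22.7, 14.5 and 41.3 CPM in LPN. All EPN libraries were above all SPN libraries, and LPN overlapped both groups. The difference was 2.41-fold (log2 1.27, SE 0.44) with limma adjusted p = 0.271.

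Eda2r, a receptor gene for the ligand ectodysplasin A2, had 1.65, 3.19 and 0 CPM in SPN, 4.55, 8.44 and 6.52 CPM in EPN, and 4.18, 0.131 and 4.52 CPM in LPN. EPN was again above SPN without overlap (3.29-fold, limma adjusted p = 0.349). The EPN libraries lay wholly above SPN for 5 members (Trp53, Aen, Eda2r, Ddb2 and Xpc), beside 7.07% of all tested genes, and wholly below for Fbxw7 alone among members, beside 7.56%.

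Of the other 5 death genes, Apaf1, Ei24, Trp53inp1 and Pidd1 had negative estimates in both transfer groups against SPN and Tnfrsf10b positive ones, with 0 called. Apaf1, the scaffold of the apoptosome, was at 57.0 ± 14.5 CPM in SPN, 34.9 ± 14.2 in EPN and 52.0 ± 11.4 in LPN (n = 3). Ei24, an endoplasmic reticulum protein gene, was at 119 ± 53.4, 72.4 ± 6.26 and 61.9 ± 25.2 CPM, with SPN A, at 59.8 CPM, inside the LPN range. Trp53inp1, a stress-induced nuclear protein gene that supports p53 activity, was at 179 ± 37.9, 146 ± 64.2 and 117 ± 39.1 CPM. Tnfrsf10b, a TRAIL receptor gene, and Pidd1, a scaffold for caspase-2, were between 0 and 18.5 CPM in all libraries, with overlapping groups.

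Among the 5 repair genes, Ddb2, a damage sensor of nucleotide excision repair, had 11.9, 12.1 and 5.42 CPM in SPN, 12.9, 18.7 and 24.5 CPM in EPN, and 26.4, 27.7 and 19.4 CPM in LPN. Both transfer groups lay above SPN without overlap, and for LPN against SPN it was the single member to do so, beside 11.3% of all tested genes. The difference was 2.45-fold in LPN (log2 1.29, SE 0.47, limma adjusted p = 0.0776) and 1.86-fold in EPN (adjusted p = 0.485) against SPN. DESeq2 on the recovered reads called the LPN difference, as it did for 12.3% of all tested genes.

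Ercc5, a nuclease of the same repair pathway, had 12.7, 71.9 and 80.1 CPM in SPN, 17.9, 27.0 and 18.7 CPM in EPN, and 16.7, 11.3 and 20.4 CPM in LPN. SPN B and SPN C were far above the other 7 libraries, while SPN A lay with the transfer groups. The difference was 0.386-fold in LPN and 0.505-fold in EPN against SPN (limma adjusted p = 0.0783 and 0.472). Without SPN A it was called in both, as were 18.4% of all tested genes in LPN and 3.03% in EPN against SPN.

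Rrm2b, the p53-induced ribonucleotide reductase subunit, had 60.7, 92.2 and 83.9 CPM in SPN, 152.5, 63.4 and 90.9 CPM in EPN, and 49.2, 40.2 and 40.7 CPM in LPN. All LPN libraries were below all others, at 0.561-fold of SPN (limma adjusted p = 0.114) and 0.456-fold of EPN (adjusted p = 0.0738). Xpc, which recognizes DNA lesions, was at 1.83 ± 1.25 CPM in SPN, 5.56 ± 1.49 in EPN and 3.04 ± 2.2 in LPN (n = 3), and Polk, a translesion polymerase gene, was between 0.262 and 9.54 CPM in all groups. Of the 5 repair genes 4 had a positive estimate in EPN and 2 in LPN against SPN, beside 45.5% and 43% of all tested genes.

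Sesn1, a stress-responsive regulator of growth signalling, had 20.3, 35.3 and 29.7 CPM in SPN, 41.0, 25.2 and 6.82 CPM in EPN, and 31.7, 48.5 and 35.1 CPM in LPN. The groups overlapped, EPN C was the lowest library, and without it the EPN difference changed sign. Tigar, a phosphatase that diverts sugar from glycolysis, was at 344 ± 44.2, 306 ± 17.2 and 411 ± 171 CPM (n = 3), with LPN A, at 607 CPM, far above the other LPN libraries. Dcxr, a sugar reductase gene, had reads in SPN A, EPN A, EPN C and LPN A, at 0.643 to 3.47 CPM.

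Zmat3, a zinc finger RNA-binding target, had 0, 4.34 and 7.00 CPM in SPN, 3.40, 2.97 and 1.65 CPM in EPN, and 0.45, 0 and 1.34 CPM in LPN. LPN lay below EPN without overlap (0.419-fold, limma adjusted p = 0.319), and SPN A held no read. Without SPN A Zmat3 was called lower in LPN against SPN, a setting in which 18.4% of all tested genes were called. Ckap2, a spindle protein gene, was at 173 ± 70.7, 205 ± 79.7 and 267 ± 29.7 CPM, and its 1.62-fold difference in LPN against SPN (adjusted p = 0.153) was called without SPN A. Cdkn2aip, which encodes a partner of ARF, ran from 24.9 to 47.7 CPM in LPN and from 52.6 to 58.1 CPM in EPN. Fbxw7, a ubiquitin ligase subunit gene, and Sulf2, a sulfatase gene, had lower means in both transfer groups than in SPN. The lowest fold, estimated on the CPM + 1 scale, was 0.417 (Sulf2 in LPN, limma adjusted p = 0.135).

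**Figure D2:**
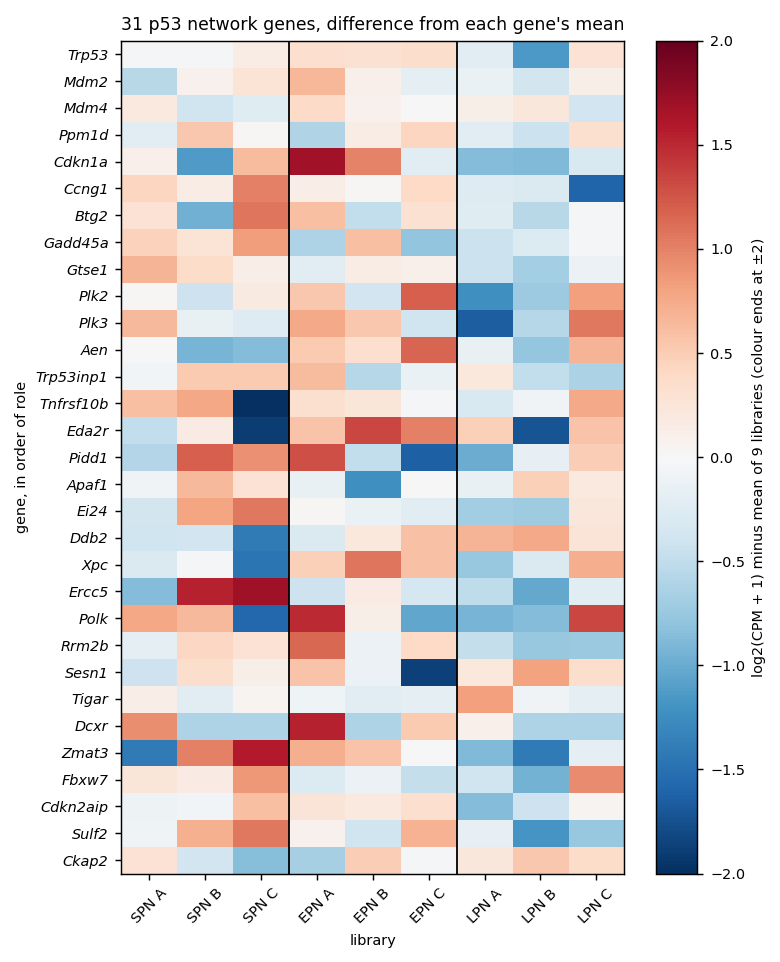
Each row is 1 of the 31 tested genes and each column a library; the colour is log2(CPM + 1) minus the gene's mean over the 9 libraries, red above and blue below, with colours ending at -2 and 2. No library or group is red or blue throughout: SPN C and EPN A each hold the highest value of 8 genes, and LPN B the lowest of 7.

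The libraries of a group did not move as blocks. SPN C and EPN A each held the highest value of 8 of the 31 members, and LPN B the lowest of 7, SPN C of 6 and SPN B of 5. The mean log2 value of the 31 members was 4.80, 4.96 and 4.87 in SPN, 5.18, 4.90 and 4.83 in EPN, and 4.49, 4.34 and 4.93 in LPN, so the 3 groups overlapped, beside 3.58 to 4.04 for all tested genes. LPN B also had the fewest reads. The highest library exceeded the lowest by more than 2-fold, on the CPM + 1 scale, for 14 of 31 members in SPN, 15 in EPN and 14 in LPN, beside 55.2%, 42.4% and 46.1% of all tested genes.

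How large a rise could have been missed was computed from the fit. For each member the smallest estimated rise that would have been called is its SE times the t value at the largest p called in that comparison, so it depends on the number of all genes called. The SE draws on the spread of all genes at a like level as well as on the member itself (25.9 prior and 6 residual degrees of freedom). In EPN against SPN the median over the 31 members was 4.18-fold on the CPM + 1 scale. The members ran from 2.45-fold for Mdm4 to 11.9-fold for Polk, for which it means a rise from 2.62 to 42.1 CPM. This median, 2.06 on the log2 scale, ran from 1.71 (without SPN A) to 4.53 (without SPN B) over left-out libraries and was 3.36 with no filter on low values. In LPN against SPN, where more genes were called and the threshold is lower, it was 2.53-fold, from 1.79-fold for Mdm4 to 5.00-fold for Polk. In LPN against EPN it was 3.08-fold, from 2.03-fold to 7.04-fold for the same 2 genes. On the log2 scale these medians, 1.34 and 1.62, ran over left-out libraries from 1.32 to 1.95 (without SPN C) and from 1.44 to 2.54 (without LPN B). For a member of median SE the true rise needed for a call with 80% power was 5.55-fold, 3.3-fold and 4.05-fold.

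Cdkn1a would have needed 3.87-fold in EPN, a rise from 70.7 CPM (the SPN mean on the log scale) to 276 CPM, and 2.41-fold, to 172 CPM, in LPN. Mdm2 would have needed 2.80-fold and 1.95-fold, from 109.9 CPM to 310.1 and 216 CPM. Ccng1 would have needed 4.67-fold and 2.72-fold, and Aen 4.24-fold and 2.55-fold. On the CPM + 1 scale the smallest callable rises for Eda2r were 9.82-fold and 4.40-fold, from 1.23 CPM to 20.9 and 8.82 CPM. For Zmat3 they were 9.69-fold and 4.37-fold, from 2.50 CPM to 32.9 and 14.3 CPM. The rise in CPM itself is a larger fold, most of all for the lowest genes, as for Dcxr, from 0.432 CPM to 10.3 CPM in EPN. On the CPM + 1 scale, for EPN against SPN 0 of 31 members could have been called at under 2-fold and 16 needed at least 4-fold. In LPN against SPN these counts were 5 and 5.

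**Figure D3:**
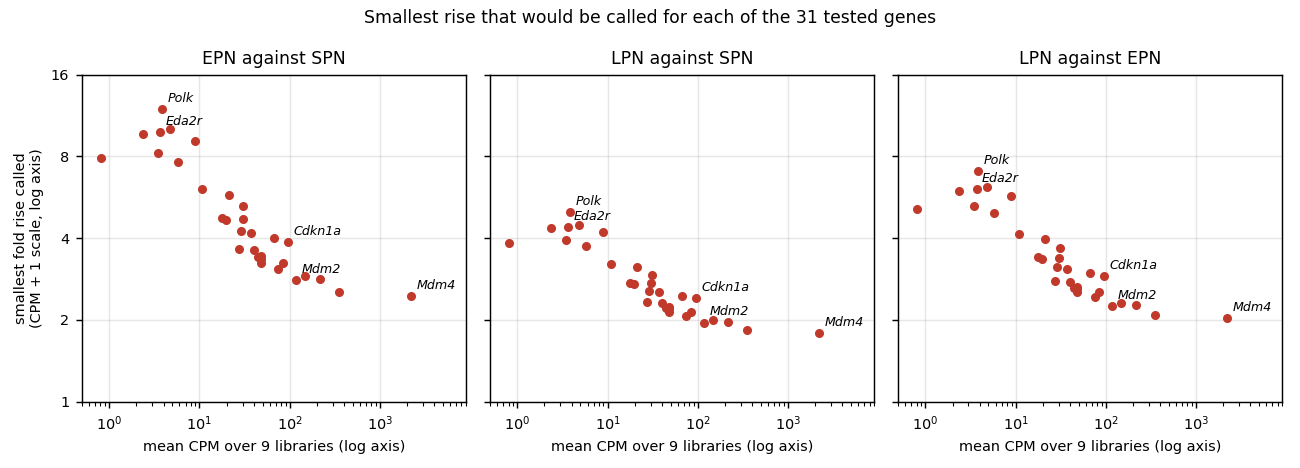
The smallest estimated fold rise that would have been called (vertical, log axis, CPM + 1 scale) against the mean CPM over 9 libraries (horizontal, log axis), 1 point for each of 31 members in each comparison. The limit falls from 11.9-fold for Polk to 2.45-fold for Mdm4 in EPN against SPN, and lies lower for every gene in LPN against SPN.

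The intervals of the estimates bound the rises from above, on the CPM + 1 scale, gene by gene and without adjustment. For EPN against SPN the upper 95% bound was under 2-fold for 19 of 31 members, between 2-fold and 4-fold for 9, and at least 4-fold for 3: Aen (4.49-fold), Xpc (6.15-fold) and Eda2r (8.80-fold). In LPN against SPN it was under 2-fold for 22 members, between 2-fold and 4-fold for 8, and above 4-fold for Ddb2 (4.79-fold). For Cdkn1a the bounds were 3.45-fold in EPN and 1.22-fold in LPN. The median upper bound was 1.85-fold in EPN and 1.49-fold in LPN against SPN, and 1.34-fold in LPN against EPN. Activity of p53 that leaves these mRNAs unchanged was not measured.

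**Figure D4:**
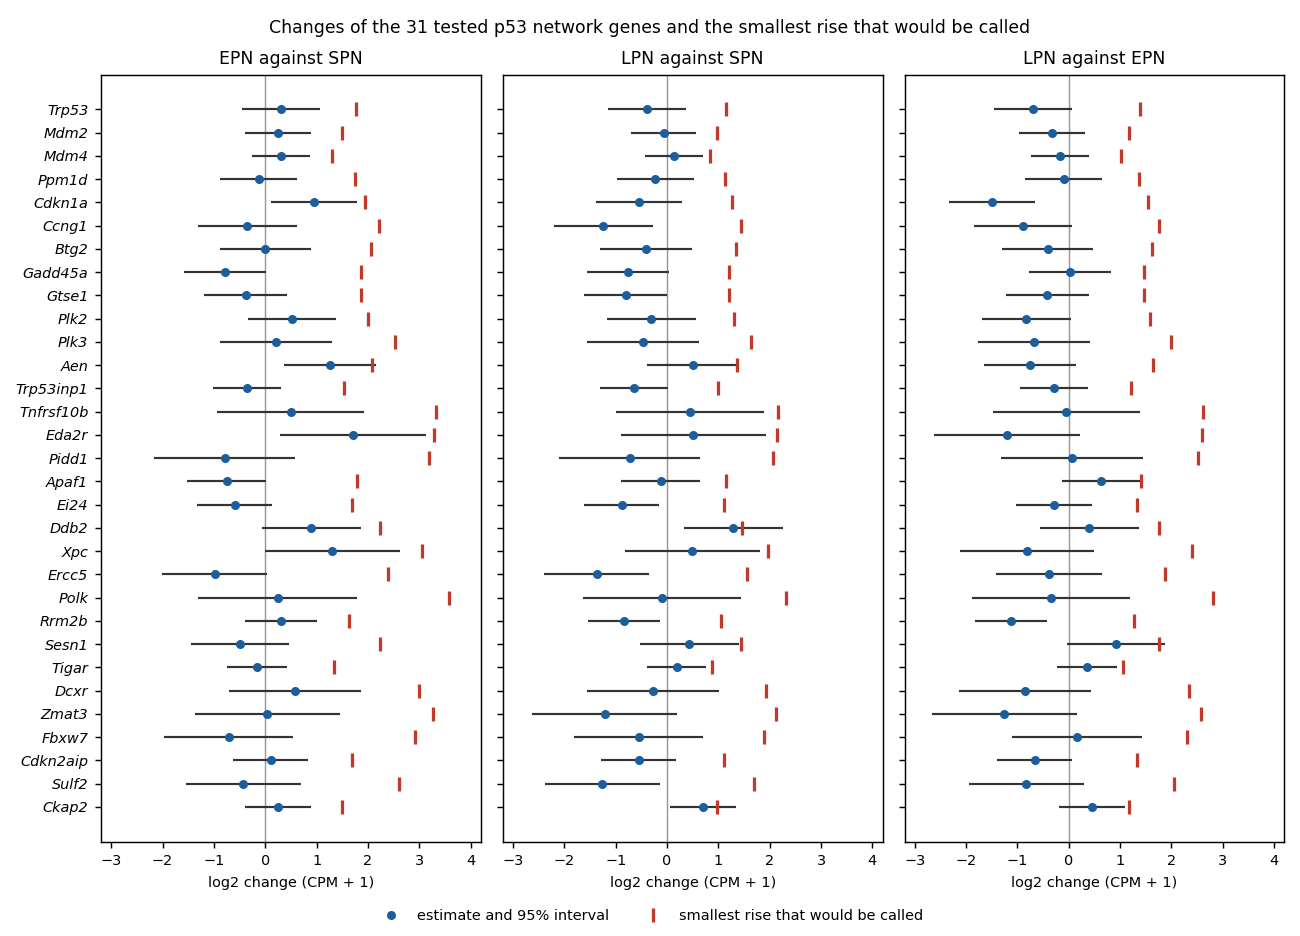
Estimated log2 change (blue points) with its 95% interval (horizontal lines) for the 31 tested genes in the 3 comparisons; red ticks mark the smallest rise that would have been called. No point reaches its tick, the nearest being Ddb2 in LPN against SPN, at 2.45-fold where 2.74-fold was needed.

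Genes around the listed network were read from 2 lists, 35 tested regulators of p53 (of 37) and 33 tested further targets (of 45, of which 5 had no row). For EPN against SPN limma called 0 of both, beside 0.108% of all tested genes. At an unadjusted limma p under 0.05 were 1 regulator and 4 targets, beside 11% of all genes. There edgeR called 0, beside 0 of all genes, and DESeq2 called 1 target, Gpx1, beside 0.787%. The smallest p-values among regulators belonged to Usp10, a deubiquitinase of p53 (64.1 ± 5.49 to 108 ± 6.24 CPM, n = 3, limma adjusted p = 0.4), and Trp53bp2, which directs p53 to death genes (6.75 ± 4.82 to 14.6 ± 1.15 CPM, adjusted p = 0.478). Among further targets they belonged to Gpx1, a glutathione peroxidase gene (212 ± 43.6 to 422 ± 81.6 CPM, adjusted p = 0.15), and the kinase gene Dyrk3 (41.8 ± 6.04 to 90.2 ± 8.42 CPM, adjusted p = 0.218). Without SPN A 3 targets were called, Gpx1, Ercc1 and Trp53inp2, beside 3.03% of all tested genes.

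In LPN against SPN limma called 3 of 35 regulators, all lower, a share of 8.57% beside 8.8% of all tested genes. A positive estimate was found for 14 of 35, beside 43% of all genes. The acetyltransferase gene Crebbp fell from 256 ± 80.3 to 129 ± 31.8 CPM (limma adjusted p = 0.0399, n = 3), the p53 kinase gene Hipk2 from 33.2 ± 8.61 to 11.9 ± 4.2 CPM (adjusted p = 0.041), and the p53 relative Trp73 from 8.48 ± 3.13 to 1.52 ± 1.06 CPM (adjusted p = 0.0487). These calls changed with the setting. The count was 0 with edgeR (3.21% of all genes called), with no filter (2.57%) and with the 6 libraries compared (4.43%). It was 1 (Hipk2) with a pseudocount of 0.1 CPM (7.00%), and 1 with median-of-ratios scaling (8.10%), where the called gene was Kat8, higher in LPN. It was 4 with DESeq2 (12.3% of all genes called), 4 with genes averaging 5 CPM or more (16.8%), and 5 with the replicate block (11.1%). Each of these had Kat8 as the 1 gene called higher. Kat8, an acetyltransferase gene named here after its values were seen, averaged 36.5 ± 12.2 CPM in the SPN libraries against 76.7 ± 4.94 CPM in the LPN libraries (n = 3), 2.14-fold and without overlap (limma adjusted p = 0.0516). The count was 6 without SPN A (Kat8 higher, 5 lower), beside 18.4% of all tested genes. It was 1 without EPN A (7.70%) or EPN B (7.37%), 2 without LPN C (7.46%), and 0 without any of the other 5 libraries (0.645% to 6.74%).

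Of the 33 further targets 5 were called in LPN against SPN, 4 of them lower, 15.2% of the list beside 8.8% of all tested genes. Abhd4, a lipase gene, fell 4.28-fold from 122 ± 33.1 to 28.8 ± 12.3 CPM, and Trp53inp2, an autophagy factor gene, fell 4.31-fold from 130.2 ± 55.1 to 28.6 ± 10.9 CPM (limma adjusted p = 0.00216 for both, n = 3). Blcap fell 3.73-fold (adjusted p = 0.013), and Ninj1, whose product ruptures the membrane of dying cells, fell 2.27-fold from 164 ± 0.387 to 75.8 ± 30.3 CPM (adjusted p = 0.0223). Abhd4 and Trp53inp2 were called in all 17 alternatives. The count of called targets was 3 without SPN B (3.01% of all genes called) and 2 without SPN C (0.645%) or LPN B (1.37%).

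Between LPN and EPN 1 of 35 regulators rose, 2.86% beside 1.53% of all genes, and 3 of 33 further targets fell, 9.09% beside the same share. Kat8 rose 2.83-fold from 26.7 ± 4.71 to 76.7 ± 4.94 CPM (limma adjusted p = 0.0378, n = 3). Gpx1 fell 2.70-fold from 422 ± 81.6 to 155 ± 19.2 CPM (adjusted p = 0.0149), Abhd4 2.89-fold (0.0389) and Ninj1 2.31-fold (0.0489). With edgeR 0 of these were called, beside 0.114% of all genes. Without SPN A 4 regulators were called, beside 5.12% of all genes. The count was 0 without EPN A (0.121% of all genes called), EPN B (0.666%), EPN C (0.0807%), LPN A (0.101%) or LPN B (0.0269%). Without LPN C the 1 called regulator was Trp53bp2, lower in LPN, and Kat8 was not called. The count of called targets was 0 without EPN A, LPN A or LPN B and 1 without EPN C, beside the shares of all genes just given.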

How the data were processed

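Poly(A) RNA of 9 pools of 3 embryos was made into Smart-seq2 v4 and Nextera XT libraries and read as 150-bp pairs, per the labels' protocols. The authors deposited CPM values for 19359 genes. Trim Galore 0.6.7, HISAT2 2.2.1, R 3.3.3, edgeR and GRCm39 are named in the submitters' processing notes; the counting tool and annotation are not given in the sources used here. CPM values came out as whole reads for 100% of values in each library (tolerance 0.01 read), with 3.66% to 5.68% of each total outside the table.

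Each comparison was tested with limma 3.58.1 (R 4.3.3, trend) on log2(CPM + 1), in 1 fit of the 9 libraries (6 residual and 25.9 prior degrees of freedom). The smallest callable rise is the SE times the t value at the largest p called (4.44e-05 for the EPN and 0.00439 for the LPN comparison with SPN, 0.000765 between LPN and EPN); where an alternative called no gene, 0.05 divided by the number of genes tested took its place. edgeR 4.0.16 and DESeq2 1.42.0 were run on the recovered reads as alternatives and called 0 and 117 of all genes between EPN and SPN, 477 and 1826 between LPN and SPN, and 17 and 925 between LPN and EPN. The scripts were tested on simulated data. Other alternatives were the pseudocount, the filter, the scaling, the libraries fitted, a replicate block and each library left out.

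Values in all 9 libraries are given for Trp53, Mdm2, Mdm4, Ppm1d, Cdkn1a, Ccng1, Btg2, Gadd45a, Aen, Perp, Sesn1 and Zmat3 by rule; those of Eda2r, Ddb2, Ercc5, Rrm2b and Fas were added after their values were seen. Of the other p53 lists the rule names up to 4 called genes, or the 2 with the smallest p where none was called; 1 called gene outside that rule is not reported here. The members and lists were chosen with earlier results of these data known. Promoter letters are from RefSeq (GRCm38.p6), an older build than that of the counts, so no gene coordinates are set beside the expression values.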

Additional observations from a re-analysis of the deposited data

How the results depend on the processing

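Of the values for named genes under the alternatives, 239 of 254 in EPN against SPN, 252 of 304 in LPN against SPN and 203 of 254 in LPN against EPN kept their direction and their side of the threshold. The count of called members, 0 in each comparison, ran over the left-out libraries from 0 to 1 in EPN against SPN, 0 to 6 in LPN against SPN and 0 to 2 in LPN against EPN. The highest counts were those without SPN A, where 3.03%, 18.4% and 5.12% of all tested genes were called. The count of called members was 2 with DESeq2 in both LPN comparisons, beside 12.3% and 6.22% of all genes. In LPN against EPN it was 1 with a mean of at least 5 CPM (4.02% of all genes), the 6 libraries compared (3.12%) or the replicate block (3.23%). Called regulators in LPN against SPN (3) were 1 with a pseudocount of 0.1 CPM (7.00% of all genes called) or median-of-ratios scaling (8.10%). They were 0 with no filter (2.57%), edgeR (3.21%) or the 6 libraries (4.43%), and 5 with the block (11.1%). Over left-out libraries they were 0 to 6, beside 0.645% to 18.4% of all genes. Between LPN and EPN (1) they were 0 with a pseudocount of 0.1 CPM (0.417%), no filter (0 of all genes called) or edgeR (0.114%). They were 2 with a mean of at least 5 CPM (4.02%), the 6 libraries (3.12%) or the block (3.23%), and 4 with DESeq2 (6.22%). Over left-out libraries they were 0 to 4, beside 0.0269% to 5.12% of all genes. Called further targets in EPN against SPN (0) were 1 with DESeq2 (0.787%) and 0 to 3 over left-out libraries, beside 0 to 3.03% of all genes. They were 3 with no filter (2.57%) and 2 to 5 over left-out libraries (0.645% to 18.4%) in LPN against SPN (5). Between LPN and EPN (3) they were 1 with a pseudocount of 0.1 CPM (0.417%) or median-of-ratios scaling (1.21%). They were 0 with no filter (0 of all genes called) or edgeR (0.114%), and 0 to 3 over left-out libraries (0.0269% to 5.12%). The cause of these moves was not tested.

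The median smallest callable rise was 2.06 log2 in EPN against SPN, 3.36 with no filter, 2.65 with the 6 libraries, and 1.71 to 4.53 over left-out libraries, the highest without SPN B. In LPN against SPN it was 1.34, and 1.32 to 1.95 over left-out libraries. In LPN against EPN it was 1.62, 3.36 with no filter, and 1.44 to 2.54 over left-out libraries, the highest without LPN B. Where a setting called no gene, the t value at 0.05 divided by the number of genes tested was used. The limit was not computed for edgeR or DESeq2.

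The log2 differences that changed sign were all uncalled, and ranges here are over left-out libraries. In EPN against SPN, Btg2 was -0.097 with edgeR, -0.102 with DESeq2 and -0.546 to 0.469, Zmat3 -0.334 with edgeR, -0.339 with DESeq2 and -0.865 to 0.635, Ppm1d -0.345 to 0.17, and Sesn1 -1.01 to 0.205. In LPN against SPN, Mdm2 was 0.112 with median-of-ratios scaling, 0.0755 with edgeR, 0.107 with DESeq2 and -0.313 to 0.103, Btg2 -0.96 to 0.0548, and Trp53 -0.713 to 0.00872. Between LPN and EPN, Ppm1d was 0.0242 with median-of-ratios scaling and -0.397 to 0.117, Gadd45a -0.0435 with edgeR, -0.0136 with DESeq2 and -0.236 to 0.458, and Mdm4 0.00916 with DESeq2 and -0.296 to 0.013.

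Deviations of libraries with the same letter correlated at -0.02 to 0.09 over 9 pairs, and those of libraries with different letters at -0.10 to 0.10. Of the 9 libraries 6 correlated best with their own letter. These weak correlations do not settle whether the letters pair the libraries, and the main fit did not pair them. The replicate block moved the calls over all genes from 16 to 25, from 1309 to 1644 and from 228 to 480, and among members added Cdkn1a in LPN against EPN. The effect of depth on the calls was not tested.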
